A study of Mus musculus with 6 samples.

Results

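The 9 genes described here encode enzymes of heme synthesis and carriers that bring its precursors into the mitochondrion. The list does not hold every enzyme of the pathway. They were chosen by name: Alas2, Cpox, Ppox, Fech, Slc25a38 and Tmem14c (6 genes) for mitochondrial steps, and Alad, Uros and Urod (3 genes) for cytosolic steps. All 9 were found among the 23094 named rows of the deposited table, each on 1 row, and a gene symbol standing on several rows would have been taken from the row with the highest mean. The cells were CD71+Ter119+ erythroid cells from fetal liver, sorted at embryonic day 13.5 from mice of the C57BL/6 strain label. CD71 is the transferrin receptor and Ter119 an antigen of the red cell lineage, so the sort takes maturing erythroblasts. The groups were Tfam KO (n = 3) and Tfam WT (n = 3), where Tfam encodes a factor that packages and helps transcribe mitochondrial DNA. The labels used here name no Cre driver or allele. Nor do they tie a replicate to an embryo, so p-values here cover the spread between libraries, which may be technical.

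Heme is iron held in a porphyrin ring, and erythroblasts make it in large amounts for hemoglobin. Synthesis starts in the mitochondrial matrix, where ALAS2 joins glycine and succinyl-CoA, continues in the cytosol from aminolevulinic acid to coproporphyrinogen, and returns to the mitochondrion for the closing oxidations and the insertion of iron. The pathway therefore crosses the mitochondrial membranes more than once, and inherited defects of several of these genes in humans cause sideroblastic anemia or porphyria. The comparison asks whether transcripts of this pathway differ when the cells carry the label of a deleted mitochondrial transcription factor.

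Values are RPKM, reads scaled to transcript length and to the library total, so levels can be set side by side between genes. Tfam itself was at 5.92, 7.22 and 6.25 RPKM in KO libraries, against 7.22, 8.44 and 5.72 in WT libraries. The groups overlapped, and gene-level values do not separate a deleted exon from the rest, so they do not check the labels. WT replicate 3 stood apart from the other libraries. Its RPKM values summed to 815524, against 423263 to 535933 in the other 5. Across genes, Pearson's r of its log2 values with those libraries was 0.930 to 0.962, and r among those libraries was at least 0.973. Its level of Rn45s, the precursor of ribosomal RNA, was 5526 RPKM, where the KO libraries had 782, 1143 and 895 and the other WT libraries 940.4 and 869. Fold changes of the 9 genes are therefore given with and without WT replicate 3. Erythroid markers were high in every library, where 9 markers added up to 9292, 7653 and 11027 RPKM in KO libraries, and to 9509, 9030.2 and 8878 in WT libraries.

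Every gene of the list was strongly expressed. Averaged over the 6 libraries, Alas2 was highest (3024 RPKM). Urod (1581), Fech (1205), Cpox (1099) and Tmem14c (947) came next, before Ppox (503), Alad (414), Uros (263) and Slc25a38 (217). Alas2 led in 6 of 6 libraries, and the order of Tmem14c, Ppox, Alad, Uros and Slc25a38 was also the same in 6 of 6. Between Urod and Fech, Fech and Cpox, and Cpox and Tmem14c the order held in 5 of 6 libraries. The exceptions were KO replicate 1, WT replicate 2 and WT replicate 3 in turn. Urod and Fech, and Fech and Cpox, were therefore not separated beyond the spread between libraries. Cpox stood at 1.68, 1.21 and 1.38 times the row of Tmem14c in KO libraries, and at 1.39, 1.52 and 0.483 times in WT libraries. Values of Alad, Ppox and Tmem14c need care. The row of Alad also names Pole3, a DNA polymerase epsilon subunit, that of Ppox also names the deubiquitinase gene Usp21, and that of Tmem14c also names Pak1ip1, and the table does not say how much of each row belongs to the heme gene.

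**Figure D1:**
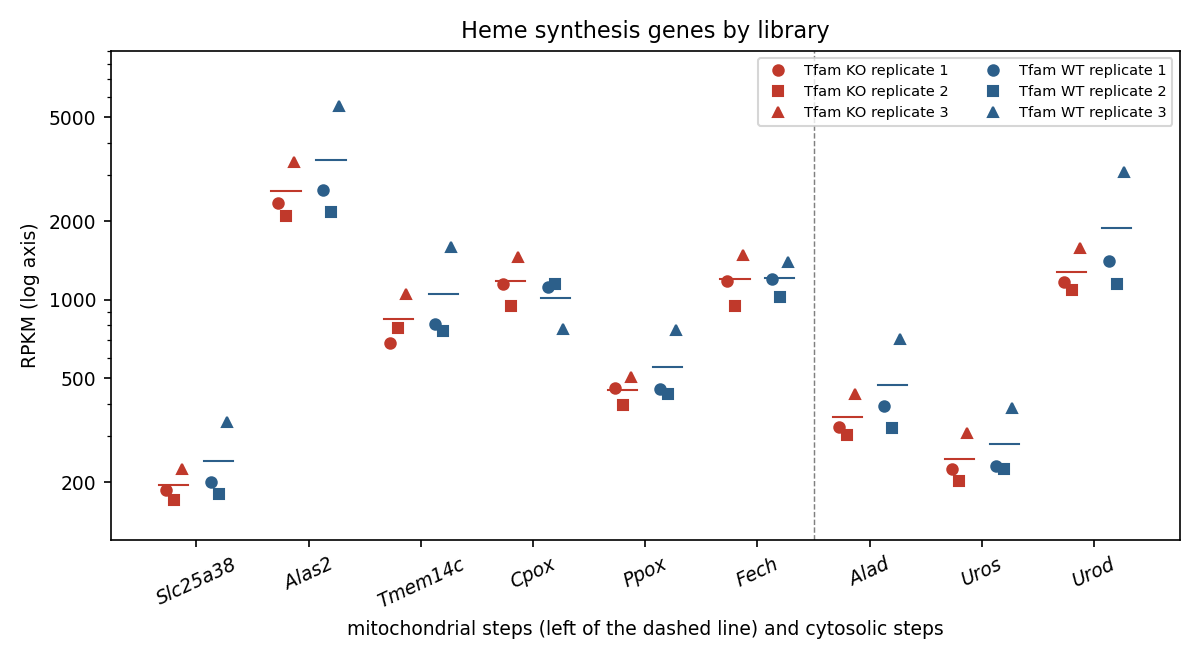
RPKM (log axis) of the 9 genes in each library, with KO in red left of WT in blue, symbols for replicate number and a bar at each group mean. KO and WT points overlap for every gene, and WT replicate 3 is the highest library for 7 genes and the lowest for Cpox.

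The promoters of these genes show which letters of the erythroid factors GATA1 and KLF1 lie close to their starts. RefSeq starts on build GRCm38.p6 were matched by symbol for 8 of 9 genes, with 10 starts in all and none for Fech. Starts of the 9 genes on 1 chromosome were left out of the search, but not out of the count over all starts. The deposited values were made on mm9, so these coordinates are not those of the table. In the 250 bases before each start, GATA preceded by A or T and followed by A or G occurred on either strand at 3 starts, which belong to Alas2, Cpox and a downstream start of Uros. The same search found a match at 26.5% of all 32851 starts. CCNCNCCC, a pattern that takes in CACCC boxes bound by KLF1 and GC boxes alike, occurred at 6 of 10 starts, against 45.9% of all starts. The 3 promoters with a GATA motif are printed. Alas2 and Cpox carry such letters at the same distance from the start (81 to 86 bases before it). No link between these letters and the levels of the genes was tested. Bases just after the Cpox start were not found in a GENCODE M21 transcript of that gene, unlike those of Alas2 and the downstream start of Uros. The distance in Cpox is therefore less certain. Capitals mark both motifs.
Alas2 (chromosome X, chrX:150547167-150547416, plus strand): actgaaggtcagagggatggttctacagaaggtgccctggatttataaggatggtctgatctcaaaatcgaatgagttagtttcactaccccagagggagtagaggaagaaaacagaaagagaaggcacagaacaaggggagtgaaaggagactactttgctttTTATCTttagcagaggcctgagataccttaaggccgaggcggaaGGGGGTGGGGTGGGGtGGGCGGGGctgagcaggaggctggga
Cpox (chromosome 16, chr16:58669958-58670207, plus strand): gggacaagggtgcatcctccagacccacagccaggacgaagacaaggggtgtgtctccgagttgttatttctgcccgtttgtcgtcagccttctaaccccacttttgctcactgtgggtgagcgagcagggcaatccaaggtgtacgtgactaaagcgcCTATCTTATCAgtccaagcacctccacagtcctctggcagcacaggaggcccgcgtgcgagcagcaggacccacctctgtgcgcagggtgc
Uros, downstream start (chromosome 7, chr7:133702501-133702750, minus strand): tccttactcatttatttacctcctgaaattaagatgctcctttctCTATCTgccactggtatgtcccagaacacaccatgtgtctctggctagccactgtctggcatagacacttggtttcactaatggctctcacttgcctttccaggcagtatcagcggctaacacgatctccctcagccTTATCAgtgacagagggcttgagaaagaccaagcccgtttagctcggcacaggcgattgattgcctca
In Alas2 the single GATA match lies upstream of 4 CCNCNCCC matches, of which 3 overlap, and all read on the strand opposite to the one printed. In Cpox a pair of GATA matches on the opposite strand share a base, and no CCNCNCCC match was found in the window. Uros is known to have a housekeeping and an erythroid promoter, and its upstream start held no GATA match. The table gives 1 value for Uros and does not separate the starts.

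None of the 9 genes differed between KO and WT libraries beyond the spread between libraries. Of the 9, 0 passed limma's test at an adjusted p of 0.05 and 0 had an unadjusted p under 0.05. Among all 8302 tested genes 0.00% passed, and an unadjusted p under 0.05 was found for 100 (1.20%). In 0 of 9 genes did the groups separate, against 4.54% of all tested genes. With all libraries 8 genes had a lower and 1 a higher fitted value in KO, with a median log2 fold change of -0.26 beside -0.02 for all tested genes. Without WT replicate 3 this turned to 7 higher and 2 lower with a median of 0.04, whereas without both libraries numbered 3, which also takes out the highest KO library, it was 0 higher and 9 lower with a median of -0.10 and single genes at -0.18 to -0.06. After quantile normalization the median was 0.0013, and after scaling to the RPKM sum it was -0.03 beside 0.19 for all genes. A fitted value lower in KO was found for 53.0% of all tested genes with 6 libraries, a higher one for 44.9% without WT replicate 3, and a lower one for 59.9% without both libraries numbered 3. KO was below WT in each of the 3 pairs of libraries with the same number for 5 of the 9 genes (Alas2, Slc25a38, Alad, Uros and Urod), and for 20.1% of all tested genes. The fit without WT replicate 3 called 0 of the 9 genes (0.0120% of all tested genes), and their groups still overlapped in all 9, while 11.3% of all tested genes did not overlap.

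**Figure D2:**
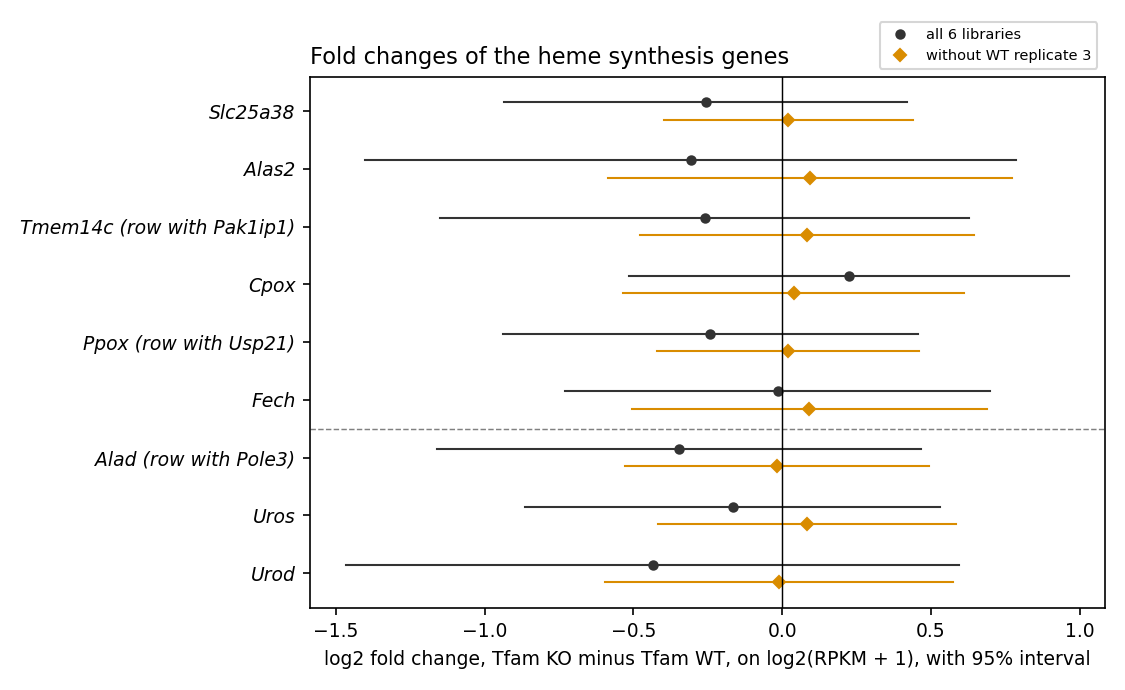
Log2 fold change of KO minus WT on the log2(RPKM + 1) scale with its 95% interval, for mitochondrial steps above the dashed line and cytosolic steps below it, with all 6 libraries in black and without WT replicate 3 in orange. Every interval includes 0, and without WT replicate 3 the values lie between -0.02 and 0.09.

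Among the mitochondrial genes, Alas2 encodes the erythroid form of aminolevulinic acid synthase, the enzyme that commits glycine to the pathway. It was at 2349.6, 2094 and 3378 RPKM in KO libraries, against 2641, 2168 and 5510.4 in WT libraries. KO replicate 3 and WT replicate 3 were high in their groups, and the groups overlapped. The means were 2607 ± 680 in KO and 3440 ± 1809 in WT (SD, n = 3 each), and limma gave a log2 fold change of -0.31 (SE 0.46, adjusted p = 0.909). Without WT replicate 3 it was 0.09, with a 95% interval from -0.59 to 0.77.

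Slc25a38 encodes the inner membrane carrier that supplies glycine to ALAS2. It was the lowest of the 9 genes, at 186, 171 and 225 RPKM in KO libraries, against 201, 181 and 339 in WT libraries. The KO values lay within or just below the range of WT replicates 1 and 2, apart from KO replicate 3 above them. Limma's log2 fold change was -0.26 (SE 0.29, adjusted p = 0.909 by limma), and 0.02 without WT replicate 3 (95% interval -0.40 to 0.44).

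Tmem14c encodes an inner membrane protein needed to bring protoporphyrinogen into the matrix. Its row, shared with Pak1ip1, was at 685, 780.5 and 1056 RPKM in KO libraries, against 805, 756 and 1597.5 in WT libraries. KO replicate 1 was the lowest library here, whereas KO replicate 2 was the lowest of the KO libraries for the other 8 genes. The fitted log2 fold change was -0.26 (SE 0.38, adjusted p = 0.909 by limma), and 0.08 without WT replicate 3.

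Cpox encodes coproporphyrinogen oxidase of the intermembrane space. It was at 1151, 947 and 1453 RPKM in KO libraries, against 1122, 1148 and 772 in WT libraries. WT replicate 3 was the lowest of the 6 libraries, the reverse of its place for Alas2, and KO replicate 3 was the highest. Means were 1184 ± 255 in KO and 1014 ± 210.0 in WT (SD, n = 3 each). The log2 fold change was 0.22 (SE 0.31, adjusted p = 0.909 by limma), 0.04 without WT replicate 3 (95% interval -0.54 to 0.61) and -0.12 without both libraries numbered 3.

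Ppox encodes protoporphyrinogen oxidase, which forms protoporphyrin at the inner membrane. Its row, shared with Usp21, was at 459, 396 and 504 RPKM in KO libraries, against 454, 435 and 767 in WT libraries. KO replicate 1 and WT replicate 1 were close, and the KO range took in both lower WT values. On the log2 scale the fold change was -0.24 (SE 0.30, adjusted p = 0.909 by limma), and 0.02 without WT replicate 3.

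Fech encodes ferrochelatase, which inserts iron into protoporphyrin on the matrix side of the inner membrane. It was at 1184, 948 and 1479 RPKM in KO libraries, against 1204, 1026 and 1389 in WT libraries. The KO range enclosed all WT values, and the means were 1204 ± 266 in KO and 1206 ± 182 in WT (SD, n = 3 each). The log2 fold change was -0.02 (95% interval -0.73 to 0.70, adjusted p = 0.988 by limma), so changes of up to about 0.7 in either direction lay within the interval.

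Among the cytosolic genes, Urod encodes uroporphyrinogen decarboxylase, which makes coproporphyrinogen. It was at 1170.0, 1091 and 1582 RPKM in KO libraries, against 1407, 1153.5 and 3081 in WT libraries. It had the most negative log2 fold change of the 9 genes with all libraries, at -0.44 (SE 0.44, adjusted p = 0.909 by limma). WT replicate 3 held 2.41 times the mean of WT replicates 1 and 2, and without it the means were 1281 in KO and 1280.1 in WT, with a log2 fold change of -0.01 (95% interval -0.60 to 0.58).

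Alad encodes aminolevulinic acid dehydratase, which joins aminolevulinic acid molecules into the first pyrrole. Its row, shared with Pole3, was at 325, 302 and 437 RPKM in KO libraries, against 390.3, 322 and 705 in WT libraries. The log2 fold change was -0.35 (SE 0.35, adjusted p = 0.909 by limma), and -0.02 without WT replicate 3. Uros encodes uroporphyrinogen III synthase, which closes the ring. It was at 225, 202 and 309.5 RPKM in KO libraries, against 231, 224 and 384 in WT libraries. For Uros the log2 fold change was -0.17 (SE 0.30, adjusted p = 0.909 by limma), and 0.08 without WT replicate 3. For both genes KO replicates 1 and 2 lay close to WT replicates 1 and 2, and the libraries numbered 3 were the highest of their groups.

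No gene of either the mitochondrial or the cytosolic steps passed the test. With all libraries the median log2 fold change was -0.25 for the 6 mitochondrial genes, of which 5 had a lower fitted value in KO, and -0.35 for the 3 cytosolic genes, all lower, except that Ppox, Fech, Tmem14c and Uros turned higher after quantile normalization and Fech and Uros after scaling to the RPKM sum. Without WT replicate 3 the medians were 0.06, with 6 of 6 higher, and -0.01, with 1 of 3 higher, and without both libraries numbered 3 they were -0.09 and -0.17. Within each library the mean log2 level of the mitochondrial genes exceeded that of the cytosolic genes by 0.78, 0.75 and 0.71 in KO libraries, and by 0.67, 0.74 and 0.30 in WT libraries. KO replicate 3 lay below WT replicate 2 in this difference, so the groups overlapped. KO was above WT in each of the 3 numbered pairs, by little in the second, but no label gives a pairing. In WT replicate 3, log2 levels relative to the mean of WT replicates 1 and 2 were -0.56 for Cpox and 0.32 for Fech. They were 0.79 to 1.20 for the other mitochondrial genes and 0.75 to 1.27 for the cytosolic genes. These summaries are descriptions and were not tested.

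Libraries of the same genotype differed among themselves for these genes. WT replicate 3 was the highest library for 7 of 9 genes (41.7% of all tested genes) and the lowest for 1, Cpox (36.7%). Without that library, KO replicate 3 was the highest for 9 of 9 genes (39.1% of all tested genes) and KO replicate 2 the lowest for 8 of 9 (27.2%). Erythroid marker sums had the same extremes among these 5 libraries, at 11027 RPKM in KO replicate 3 and 7653 in KO replicate 2. Hepatocyte markers had the opposite extremes, where 6 markers added up to 74.2, 125 and 12.6 RPKM in KO libraries, and to 78.6, 50.6 and 32.0 in WT libraries. Megakaryocyte markers (6 genes) summed to 72.5, 83.6 and 26.1 RPKM in KO libraries, and to 73.2, 69.6 and 39.6 in WT libraries. Neutrophil markers (6 genes) summed to 17.5, 43.9 and 33.3 RPKM in KO libraries, and to 25.7, 26.6 and 102 in WT libraries. Of the 102 RPKM in WT replicate 3, S100a8 held 83.6. Its annotated transcript is short (486 bases), and the shortest transcripts were raised in that library, as given below. Elane, Prtn3, Ctsg and Ngp were also highest there. Mpo, with the longest transcript of this list (2750 bases), was at 4.83 RPKM there, below WT replicates 1 and 2. Early progenitor markers (4 genes) summed to 1.87, 3.31 and 0.987 RPKM in KO libraries, and to 1.88, 2.44 and 0.931 in WT libraries. All markers of these 4 lists were in the table and none was at 0 in every library, and their part in the spread of the heme genes was not tested. In such bulk samples fewer cells of a type and less RNA per cell cannot be told apart.

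**Figure D3:**
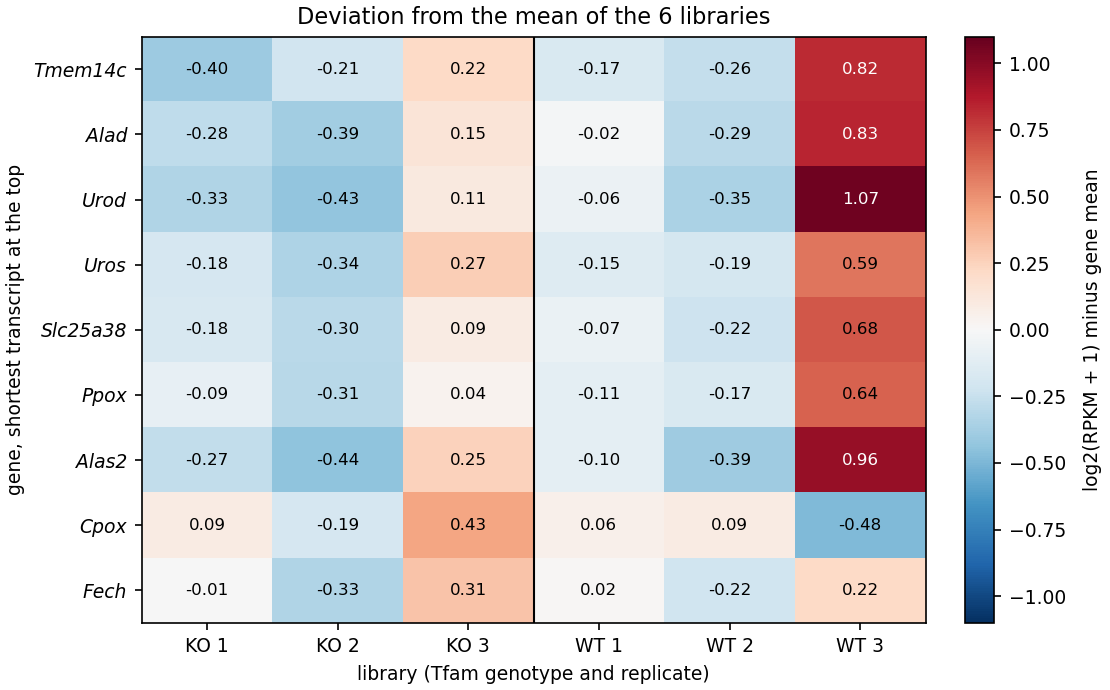
Deviation of each gene in each library from its mean over the 6 libraries, on the log2(RPKM + 1) scale, with KO libraries left of WT libraries and genes ordered by transcript length. WT replicate 3 ranges from -0.48 for Cpox to 1.07 for Urod, and KO replicate 3 is above 0 for all 9 genes.

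In WT replicate 3 the members departed from one another. Relative to the mean of WT replicates 1 and 2, its log2 level was 1.27 higher for Urod, 1.20 for Alas2, 1.03 for Tmem14c, 0.99 for Alad, 0.83 for Slc25a38, 0.79 for Ppox, 0.75 for Uros and 0.32 for Fech, and -0.56 for Cpox. Fech and Cpox have the longest annotated coding transcripts of the 9, at 6571 and 3097 bases, against 914 to 2037 for the other 7. Across all tested genes the same difference had a median of 0.82 for the fifth with the shortest transcripts (up to 1613 bases), -0.65 for the fifth with the longest (4848 bases or more) and 0.04 for all. Both lay below the other 7 genes, with Cpox the lower of the pair although Fech has the longer transcript. The part of transcript length in these differences was not tested for single genes. With length and GC trends removed in each library, the median log2 fold change of the 9 genes was -0.09, with 8 of 9 still at a lower fitted value in KO and 0 of 9 past the test.

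Ratios within a library show the same departure. The level of Alas2 was 2.04, 2.21 and 2.32 times that of Cpox in KO libraries, and 2.36, 1.89 and 7.14 times in WT libraries. Urod stood at 1.02, 1.15 and 1.09 times Cpox in KO libraries, and at 1.25, 1.005 and 3.99 times in WT libraries. Between Alas2 and Urod the ratio stayed at 2.01, 1.92 and 2.14 in KO libraries, and at 1.88, 1.88 and 1.79 in WT libraries. Every KO value of that last ratio was above every WT value. It was the only 1 of the 36 ratios between members in which the groups did not overlap, so it was picked after its values were seen, and it has no test. The summed RPKM of the 9 genes took 1.82%, 1.60% and 1.95% of the library sum in KO, and 1.83%, 1.75% and 1.78% in WT, so as a share WT replicate 3 no longer stood apart and the groups overlapped.

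The other genes of the list followed each other closely across libraries. Over the 6 libraries, the 28 pairs without Cpox had Pearson's r of 0.68 to 0.997 (median 0.96) on the log2 scale, whereas the 8 pairs with Cpox had r of -0.53 to 0.18. Without WT replicate 3, Cpox joined the others, with r of 0.70 to 0.96 over 5 libraries. The 28 pairs without Cpox then had r of 0.59 to 0.9998 (median 0.92), lowest for Ppox with Tmem14c. These correlations are descriptions, over libraries that also differ in RPKM sum and, in WT replicate 3, by transcript length. Of 4019 single-gene rows with a mean of at least 10 RPKM, those most like Alas2 over the 6 libraries were Fam104a, Atp6v0d1, Zmat2, Ncaph2 and Slc48a1, with r between 0.998 and 0.9998. Slc48a1, a heme transporter, was at 119, 105 and 149.7 RPKM in KO libraries, against 129, 111 and 214 in WT libraries. Likeness to Alas2 was common, since 1434 rows (35.7%) had r above 0.9, and Slc25a38 ranked 43, Urod 116, Uros 275, Fech 1929 and Cpox 2975.

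Other genes of heme biology also showed no difference past the test. Of 35 further genes, 32 had a mean of at least 1 RPKM, and 0 passed limma's test at an adjusted p of 0.05 or had an unadjusted p under 0.05. With all libraries 23 had a lower and 9 a higher fitted value in KO (median -0.13), which became 12 lower and 20 higher after scaling to the RPKM sum (median 0.07, beside 0.19 for all tested genes) and 15 lower and 17 higher without WT replicate 3 (median 0.02), and was again 23 lower and 9 higher without both libraries numbered 3 (median -0.08). Alas1, the housekeeping form of the first enzyme, was at 0.958, 1.004 and 1.12 RPKM in KO libraries, against 1.06, 0.496 and 0.969 in WT libraries, and fell under the filter for testing.

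**Figure D4:**
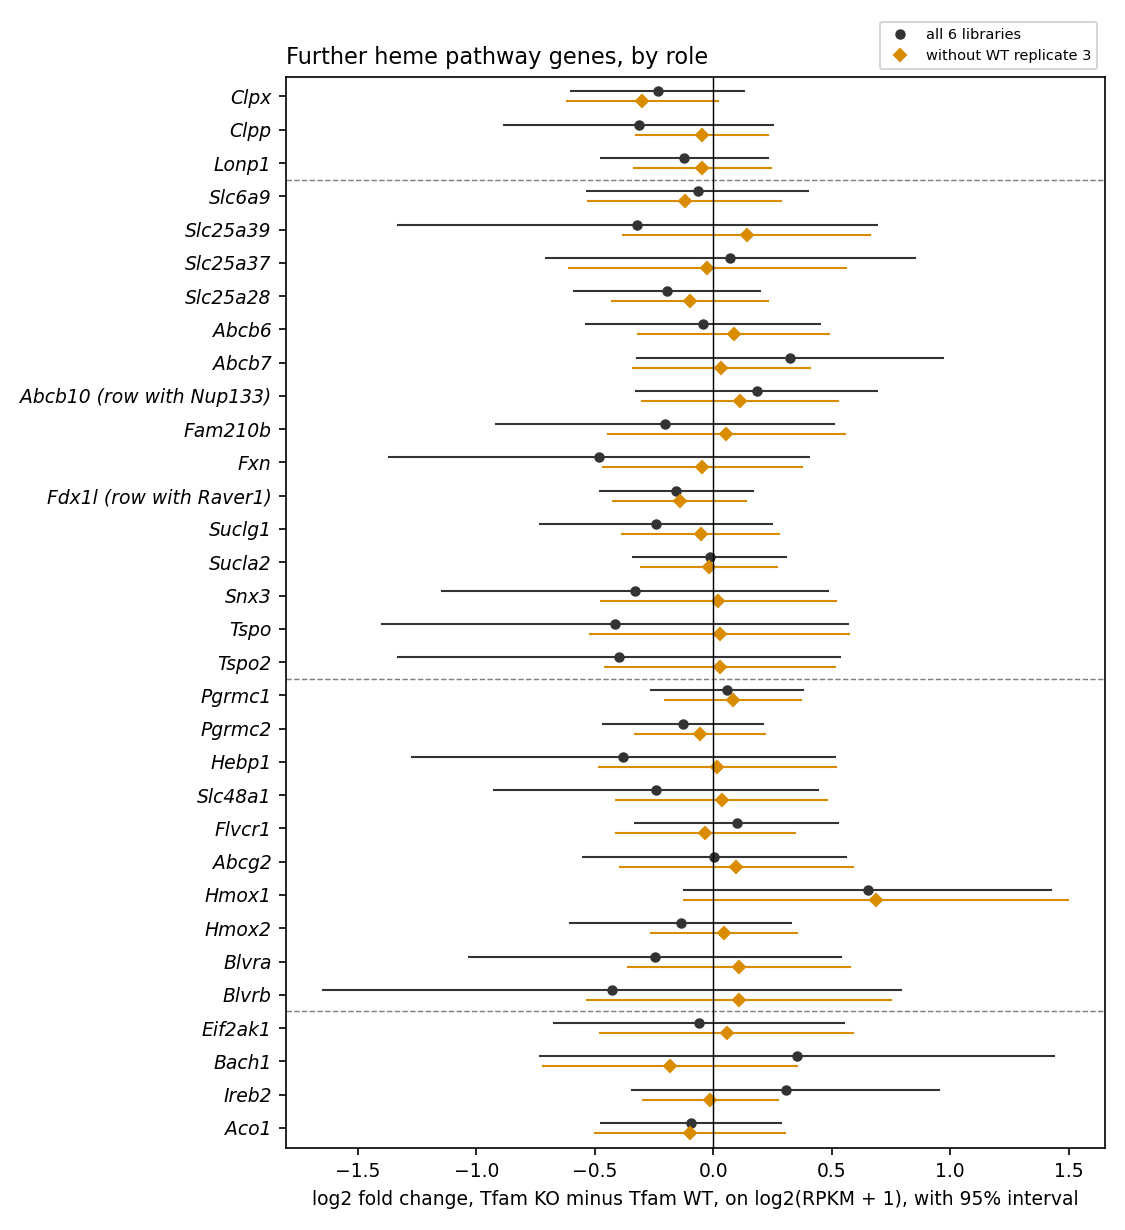
Log2 fold change of KO minus WT on the log2(RPKM + 1) scale with its 95% interval for the 32 further heme genes tested, from top to bottom in 4 roles divided by dashed lines: start of the pathway and its regulators, precursor and iron supply, trafficking and breakdown, and sensing. Black points use all 6 libraries and orange points leave out WT replicate 3, and every interval includes 0.

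Among carriers that supply iron and porphyrins, the mitochondrial iron importer Slc25a37 was at 3154, 2511 and 3153 RPKM in KO libraries, against 2970.0, 2982 and 2431 in WT libraries. WT replicate 3 was its lowest library, as for Cpox, and the groups overlapped. Slc25a39, an inner membrane carrier of glutathione, was at 527, 477 and 691 RPKM in KO libraries, against 545, 469 and 1322 in WT libraries, and resembled Alas2. The row of Abcb10, an inner membrane transporter that stabilises the iron importer, is shared with Nup133 and was at 481, 456 and 519 RPKM in KO libraries, against 435, 463 and 387 in WT libraries. Abcb6, a porphyrin transporter, was at 116, 89.1 and 117 RPKM in KO libraries, against 105, 96.2 and 131 in WT libraries. The log2 fold changes were 0.07 for Slc25a37, -0.32 for Slc25a39, 0.18 for Abcb10 and -0.04 for Abcb6. Without WT replicate 3 they were -0.03, 0.14, 0.11 and 0.09 in the same order. Of the 15 genes tested in this group, fitted values were higher in KO for 3 and lower for 12 with all libraries, higher for 9 and lower for 6 after scaling to the RPKM sum (median 0.03, beside 0.19 for all tested genes), higher for 8 and lower for 7 without WT replicate 3, and again higher for 3 and lower for 12 without both libraries numbered 3.

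Heme breakdown and sensing gave the highest fold change of the further genes. Hmox1, the inducible heme oxygenase, was at 11.2, 15.5 and 5.47 RPKM in KO libraries, against 6.36, 5.26 and 6.29 in WT libraries. KO replicates 1 and 2 lay above every WT library and KO replicate 3 within their range. The log2 fold change was 0.65 (95% interval -0.12 to 1.42, adjusted p = 0.909 by limma), and 0.69 without WT replicate 3. Macrophages also express Hmox1, and the macrophage list (10 of 10 markers in the table, 4 of them under 1 RPKM in every library and none at 0 in all) summed to 8.06, 11.9 and 4.83 RPKM in KO libraries, against 13.9, 12.8 and 19.4 in WT libraries. The 6 markers tested all had a lower fitted value in KO, as had 53.0% of all tested genes. Cd5l, Marco and Csf1r passed the filter of a mean of 1 RPKM only through WT libraries. Their means were 0.56, 0.73 and 0.85 RPKM in KO, against 1.86, 1.45 and 1.26 in WT. The filter thus partly fixed their direction in advance. The direction of the 6 was the same after quantile normalization and scaling to the RPKM sum and without WT replicate 3. Among the KO libraries, Hmox1 had the same order as the macrophage sum, and as the hepatocyte, megakaryocyte and early progenitor sums. The part of such cells in the value of Hmox1 was not tested. The heme exporter Flvcr1 (named Mfsd7b in the table) was at 1.33, 1.29 and 0.886 RPKM in KO libraries, against 1.21, 1.21 and 0.678 in WT libraries. Eif2ak1, the heme-regulated kinase that slows translation when heme is short, was at 350.5, 279 and 428 RPKM in KO libraries, against 372, 299 and 426 in WT libraries. Its log2 fold change was -0.06, and 0.06 without WT replicate 3.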

How the data were processed

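RNA of 6 libraries was measured by sequencing, with TruSeq libraries read on an Illumina NextSeq per the labels' protocols. The authors deposited RPKM values, made with TopHat and Cufflinks on mm9 per the submitters' processing notes, and versions, annotation and strand setting are not stated in those notes. Of 23119 rows, 25 carry a number for a name and were left out (mean 0.158% of the RPKM sum), and 7226 named rows are at 0 throughout.

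Absolute depth is unknown. Ratios of values under 0.05 RPKM put depth relative to WT replicate 2 at 92.7%, 84.1% and 79.6% for KO replicates 1 to 3 and 88.9% for WT replicate 1, where 44.4%, 80.1%, 82.5% and 80.3% of ratios fell within 0.03 (log2) of a step of whole reads. For WT replicate 3 no relative depth could be found (23.6% on steps).

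The 8302 rows with a mean of at least 1 RPKM were tested with limma 3.58.1 (R 4.3.3) on log2(RPKM + 1), without a block, allowing a trend of variance with mean, at a Benjamini-Hochberg adjusted p of 0.05. Fold changes on that scale understate changes of low genes. The fit was tested on simulated data with known answers. Noise was drawn independently for each row, so no library stood apart and no shift was shared by genes, unlike in WT replicate 3. It recovered 41 of 100 rows changed by a log2 of 1 and 79 of 100 changed by a log2 of 2. Of its 128 calls, 8 were false. Changes of a log2 of 1 were thus missed more often than found in the simulation. These figures do not give the power of the comparison made here. Transcript length and GC came from the longest coding transcript in GENCODE M21 (99.6% of tested rows). Deviations from group means correlated at 0.46, 0.17 and 0.53 between libraries numbered 1, 2 and 3. Between libraries of different numbers r was -0.51 to 0.40, with 0.40 for KO replicate 1 with WT replicate 2. The check therefore does not establish a pairing by number, and no label gives one. The printed tests carry no block, and a fit with the replicate number as a block was an alternative.

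The 9 genes, the gene lists and the rule for named genes (the 9, Tfam, a few genes of the heme list and the 5 genes most like Alas2) were chosen with earlier results of these data known, and 1 gene of the heme list is not reported here. Scaling to the RPKM sum and leaving out both libraries numbered 3 were added after seeing the data. Python 3.11.15 with matplotlib 3.10.9 drew the figures.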

Additional observations from a re-analysis of the deposited data

How the results depend on the processing

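None of the 9 genes passed the test under any of the 17 alternatives, and the lowest adjusted p among them was 0.626. Directions were less stable, although Alad and Urod kept a lower fitted value in KO under all 17. Leaving out 1 library at a time gave log2 fold changes of -0.58 to 0.093 for Alas2, -0.39 to 0.019 for Ppox and -0.18 to 0.14 for Fech. For Slc25a38 they were -0.43 to 0.020, for Tmem14c -0.46 to 0.083 and for Uros -0.35 to 0.084. Those of Alad (-0.58 to -0.017), Urod (-0.72 to -0.011) and Cpox (0.039 to 0.37) did not change sign. The median was -0.43 to 0.039 for the 9 genes and -0.41 to 0.061 for the mitochondrial genes, each highest without WT replicate 3, and 0 to 2 genes of the whole table passed. Quantile normalization gave 0.012 for Ppox, 0.23 for Fech, 0.0013 for Tmem14c and 0.035 for Uros, with medians of 0.0013 for the 9 and 0.0069 for the mitochondrial genes. Scaling to the RPKM sum gave 0.22 for Fech and 0.065 for Uros, with medians of -0.025 and -0.018, beside a median of 0.19 for all genes (-0.02 as deposited). Without both libraries numbered 3 Cpox was at -0.12, the median of the 9 genes at -0.10, and 2 genes of the whole table passed. With no filter on low values 13 passed. With the replicate block 0 genes passed, 324 had an unadjusted p under 0.05 in place of 100, and the median of the 9 genes was -0.26, or -0.09 once length and GC trends were taken out, and it changed no other call. The cause of these shifts was not tested.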
